A study of Homo sapiens with 10 samples.

Results

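Nuclear receptor coactivators and corepressors were examined as a group of 9 genes: NCOA1, NCOA2 and NCOA3 (the p160 steroid receptor coactivators), CREBBP and EP300 (histone acetyltransferases), KMT2D (a histone H3K4 methyltransferase, formerly MLL2), NCOR1 and HDAC3 (corepressor and its histone deacetylase) and NRIP1 (the ligand-dependent corepressor RIP140). They were chosen by name, and every probe set assigned to 1 of these symbols alone was used. Of the 9 genes, 7 had such probe sets, 18 in all of 22277, and all 7 were among the 10911 genes tested. NCOA3 and NCOR1 were not analysed here.

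The RNA came from T47D cells, a luminal breast cancer line, here from the PR-null T47D-Y parent, with 10 Affymetrix expression arrays, 1 array for each condition. Stable lines carried an AP21967-inducible vector for the SUMO-deficient K388R progesterone receptor (iKR), for wild-type PR (iWT) or for no receptor (iEV). All cells had AP21967 (a dimerizer, labelled 10e-9 M) or its ethanol vehicle for 2 days, were serum starved, and then received R5020 (a synthetic progestin, labelled 10e-8 M) or its ethanol vehicle for 6 h; iKR and iWT were measured in all 4 combinations, and iEV only without R5020. The labels write both doses in a notation that can also be read as powers of 10. Each vector is represented by 1 line, so line and receptor cannot be told apart, and the limma p values below measure how alike the lines (or treatment states) behaved and not the spread between cultures.

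A steroid receptor bound by an agonist recruits p160 coactivators to DNA, and these bring the acetyltransferases CREBBP and EP300, which open chromatin at the target gene. Corepressor complexes with NCOR1 and HDAC3 remove the acetyl groups, and NRIP1 competes with coactivators for the agonist-bound receptor. KMT2D places methyl groups on H3K4 at enhancers. These proteins act mainly by recruitment, and the arrays measured only the level of their mRNA.

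The labels were first checked. The signal, after Robust Multi-array Average (RMA), is on a log2 scale, on which a difference of 1 is a ratio of 2. PGR, the receptor gene, had 10.65 to 12.08 on the 8 arrays of iKR and iWT cells and 6.17 and 6.25 on the iEV arrays. It was high in iKR (10.65) and iWT (11.12) cells also without AP21967. With AP21967 alone PGR had 12.08 in iKR and 11.34 in iWT cells, so it rose less in iWT cells. On the arrays with R5020, PGR had 11.38 with AP21967 and 11.43 without it in iKR cells, and 11.89 and 11.77 in iWT cells. PGR mRNA was thus unequal in the lines, and its part in their differences was not tested. FKBP5, a progestin-induced gene, had 10.92 with R5020 and 7.88 without it in iKR cells with AP21967, and 10.76 and 7.81 in iWT cells. Without AP21967 it was also higher with R5020, at 8.86 and 8.04 in iKR cells and 9.11 and 8.24 in iWT cells. Among 8 luminal epithelial markers the lowest value on any array was 8.68 (ESR1 in iKR cells with both agents), and KRT18 stayed at or above 14.97. The 8 measured markers of other cell types lay between 5.05 and 9.77, the highest being COL1A1, and TP63 was not analysed here. ESR1 (8.68 with R5020 and 9.65 without it in iKR cells with AP21967, 10.14 and 10.75 in iWT cells) and FOXA1 (9.85 and 11.11, 10.52 and 11.28) were lower in the same pairs of arrays as NCOA2 below, and their part in the results was not tested.

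Of the 7 measured coregulators, NCOA2 varied most over the 10 arrays and HDAC3 least. The range of NCOA2 (lead probe set, the brightest one of the gene) was 0.76, at percentile 88.3 of the ranges of all genes tested, and that of HDAC3 was 0.22, at percentile 13.2. EP300 (0.66), CREBBP (0.59), KMT2D (0.55), NCOA1 (0.45) and NRIP1 (0.42) lay between them. In mean signal over the arrays the lead probe sets lay between percentile 35.9 (KMT2D) and 79.9 (HDAC3) of all genes. Signals of different probe sets are not comparable as amounts of mRNA, and these percentiles only place each probe set on the array.

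**Figure D1:**
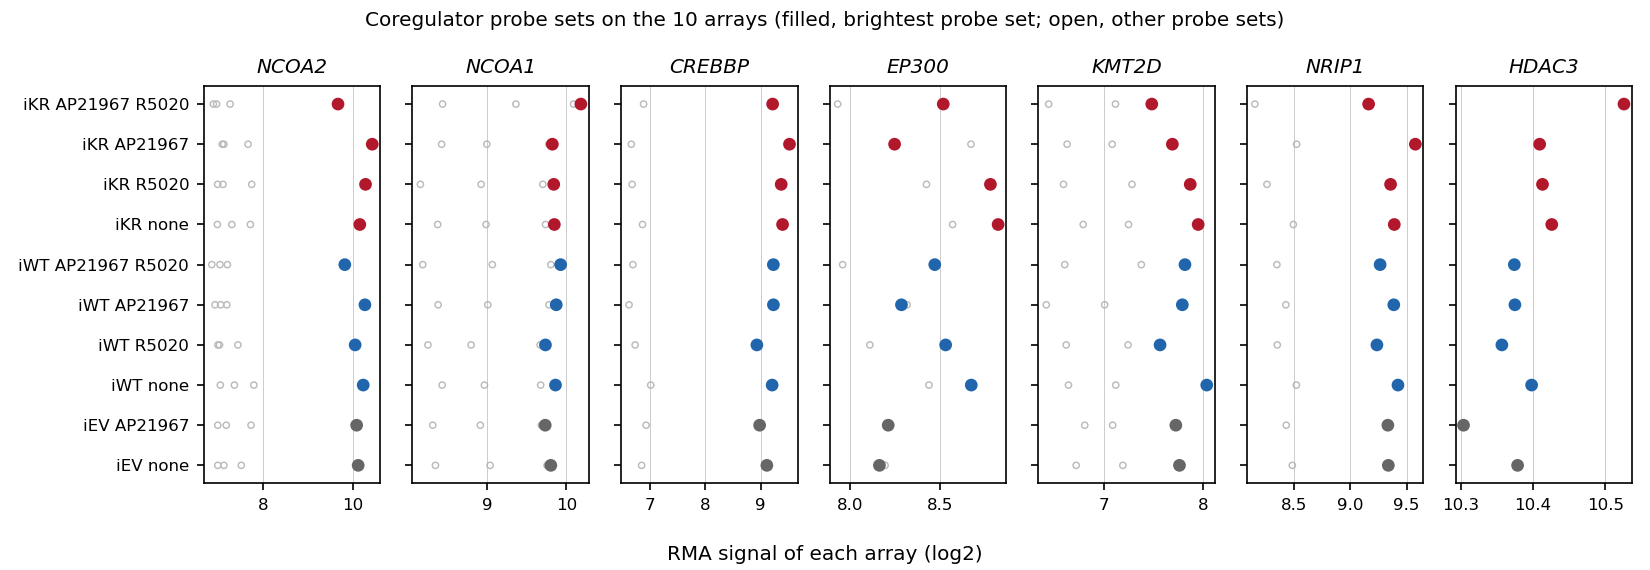
RMA signal (log2, x axis, a scale of its own for each gene) of the 7 coregulators on the 10 arrays (y axis, 1 array per condition), with the brightest probe set filled (red, iKR; blue, iWT; grey, iEV) and the others open. NCOA2 is lowest with both agents in iKR (9.67) and iWT (9.82) cells, and HDAC3 spans only 0.22.

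Promoter windows show the regulatory context of these genes. RefSeq windows (GRCh38.p14) of 300 bases, 250 before and 50 after a transcription start, were given for 6 of the 7 genes, 11 windows in all, and NCOA2 had none in the table. The progesterone response element half-site was searched as AGAACA on either strand, that is also as TGTTCT, and was found in 2 of the 11 windows, against 14.8% of all 35116 windows. The palindrome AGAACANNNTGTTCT was in 0 of the 11 windows and in 1 of all windows. The 2 windows with a half-site (in capitals) are shown, with the EP300 window, which had none, for the gene whose probe sets disagreed most below.
NCOA1, chr2:24491004-24491303, plus strand, half-site at base 274 of the window: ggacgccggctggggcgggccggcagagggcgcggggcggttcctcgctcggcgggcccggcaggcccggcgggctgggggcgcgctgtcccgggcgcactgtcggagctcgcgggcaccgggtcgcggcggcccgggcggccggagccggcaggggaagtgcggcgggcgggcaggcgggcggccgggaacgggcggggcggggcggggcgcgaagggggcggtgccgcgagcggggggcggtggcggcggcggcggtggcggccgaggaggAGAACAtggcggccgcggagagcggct
CREBBP, chr16:3880071-3880370, minus strand, half-site at base 74: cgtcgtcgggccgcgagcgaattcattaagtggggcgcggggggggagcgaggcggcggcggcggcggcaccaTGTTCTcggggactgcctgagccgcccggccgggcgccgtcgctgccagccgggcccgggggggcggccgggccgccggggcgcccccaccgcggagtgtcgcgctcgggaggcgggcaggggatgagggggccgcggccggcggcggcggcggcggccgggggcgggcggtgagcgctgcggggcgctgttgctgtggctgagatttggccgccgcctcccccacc
EP300, chr22:41092342-41092641, plus strand: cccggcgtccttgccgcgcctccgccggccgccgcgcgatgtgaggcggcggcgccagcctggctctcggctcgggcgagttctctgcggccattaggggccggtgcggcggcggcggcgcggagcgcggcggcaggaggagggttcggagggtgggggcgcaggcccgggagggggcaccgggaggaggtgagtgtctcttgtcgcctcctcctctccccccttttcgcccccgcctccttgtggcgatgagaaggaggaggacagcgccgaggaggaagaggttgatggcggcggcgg
The windows shown were rich in G and C (NCOA1 85.7%, CREBBP 82.0%, EP300 75.3%, against a median of 58.7% over all windows). The median of the 11 coregulator windows was 73.0%, but another NCOA1 window had 28.7% and an NRIP1 window 50.7%. A match is only a description of these letters, and no binding was measured on the arrays.

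The first question was whether progestin changed coregulator mRNA in the receptor lines given AP21967. With R5020 and AP21967, the lead probe set of NCOA2 fell in both receptor lines, and the other 6 coregulators did not pass the test over both lines. NCOA2, the p160 coactivator also called SRC-2 or TIF2, had 9.67 with R5020 and 10.43 without it in iKR cells with AP21967, and 9.82 and 10.27 in iWT cells. The other 8 arrays lay between 10.05 and 10.43, and how many of all genes separate in this way was not counted. In bulk RNA, less NCOA2 mRNA per cell and fewer cells that express it cannot be told apart. The response shared by both lines was -0.60 (SE 0.11, 95% interval -0.84 to -0.36, adjusted p = 0.0078 by limma over 10911 genes). Thus 1 of 7 coregulators was called, while 11.5% of all genes were called in this comparison (571 higher and 682 lower), so the share among the coregulators was near the background.

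The call rests on 1 of 4 NCOA2 probe sets. Probe set 212867_at gave -0.76 in iKR cells and -0.45 in iWT cells, at percentiles 1.5 and 2.7 of all genes' differences in those pairs. The dimmer 205732_s_at gave -0.40 and 0.01, 205731_s_at gave -0.16 and -0.07, and 215605_at gave -0.20 and -0.02. In iKR cells all 4 were lower with R5020, and in iWT cells 3 of 4, but none of the dimmer 3 was called when each probe set was tested on its own. With the mean of the 4 probe sets in place of the brightest, the NCOA2 estimate was -0.25 (adjusted p = 0.12 by limma), which ends the call.

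EP300 gave opposite answers from its probe sets. The brightest, 213579_s_at, had 8.52 with R5020 and 8.25 without it in iKR cells with AP21967, and 8.47 and 8.29 in iWT cells, a shared difference of 0.23 (SE 0.08, adjusted p = 0.099). The second, 202221_s_at, had 7.93 and 8.67 in iKR cells, and 7.96 and 8.32 in iWT cells. Its shared difference was -0.55 and was called when all probe sets were tested (adjusted p = 0.012 by limma), 1 of 2 probe sets called among the 18, the other being NCOA2 212867_at, where 11.1% of all 16803 probe sets tested were called. The direction of EP300 mRNA under R5020 was therefore not settled by these arrays, and why the probe sets differ was not tested.

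NRIP1 and NCOA1 had like differences in most of their probe sets, with larger values in iKR than in iWT cells, but the shared differences did not pass the test and the lines were not tested against each other. NRIP1 202599_s_at had 9.16 with R5020 and 9.58 without it in iKR cells with AP21967, and 9.26 and 9.39 in iWT cells; the second probe set, 202600_s_at, gave differences of -0.37 and -0.08. The shared NRIP1 difference was -0.27 (95% interval -0.48 to -0.06, adjusted p = 0.10). NCOA1, the p160 coactivator SRC-1, had 10.18 with R5020 and 9.82 without it in iKR cells, its highest value on any array, and 9.93 and 9.87 in iWT cells. In iKR cells 3 of its 4 probe sets gave 0.31 to 0.37, against 0.02 to 0.06 in iWT cells, and 209105_at gave 0.01 in iKR and -0.19 in iWT cells. The shared NCOA1 difference was 0.21 (95% interval -0.0040 to 0.42, adjusted p = 0.19). Without either iWT array with AP21967, the estimate is that of iKR cells alone, at -0.42 for NRIP1 and 0.36 for NCOA1. Such an estimate is a difference of single arrays and carries no test.

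The acetyltransferase CREBBP, the methyltransferase KMT2D and the deacetylase HDAC3 had small shared differences. CREBBP 202160_at had 9.22 with R5020 and 9.52 without it in iKR cells with AP21967, but 9.23 and 9.23 in iWT cells, and its dimmer 211808_s_at was higher with R5020 by 0.22 in iKR and 0.07 in iWT cells. KMT2D 216845_x_at had 7.48 and 7.69 in iKR cells, and 7.82 and 7.79 in iWT cells. Its other probe sets lay partly on the other side, 216382_s_at at 0.03 in iKR and 0.37 in iWT cells and 211790_s_at at -0.19 and 0.19, and the mean of all 3 turned the shared estimate to 0.037. HDAC3, with 1 probe set, had 10.53 and 10.41 in iKR cells, and 10.37 and 10.38 in iWT cells. The shared estimates were -0.15 (95% interval -0.38 to 0.07) for CREBBP, -0.09 (-0.33 to 0.15) for KMT2D and 0.06 (-0.12 to 0.24) for HDAC3, with adjusted p of 0.37, 0.64 and 0.69. These intervals leave out changes of the size of NCOA2, and do not show that the genes did not respond.

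**Figure D2:**
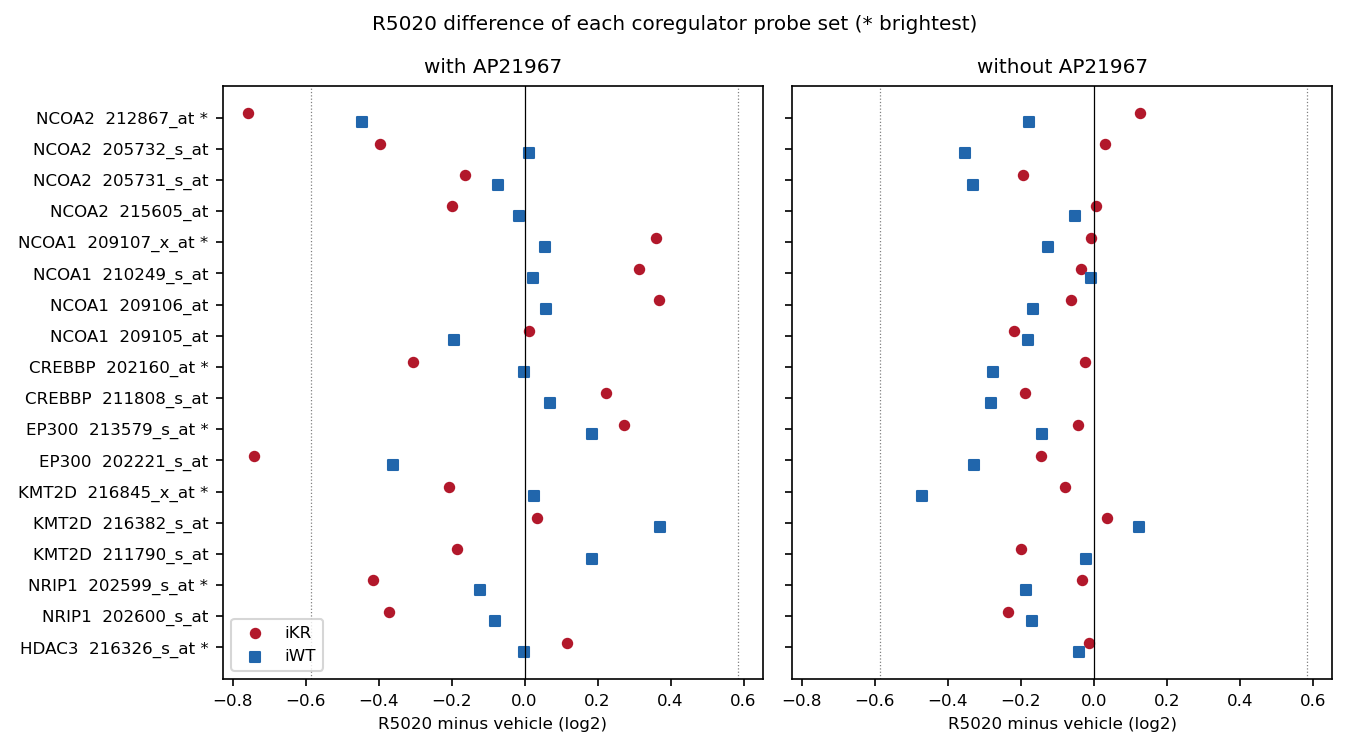
R5020 minus vehicle (log2, x axis) for each of the 18 coregulator probe sets (y axis) in iKR (red circles) and iWT cells (blue squares), in separate panels with AP21967 (left) and without it (right), dotted at 1.5 fold, where each point is a difference of 2 single arrays. With AP21967, NCOA2 212867_at and EP300 202221_s_at reach -0.76 and -0.74 in iKR cells, and without it 17 of 18 probe sets are lower with R5020 in iWT cells.

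Without AP21967, no coregulator was called for R5020, and the estimates were all below 0. Over all genes 1 was called (0.00917%), and 214 genes were higher and 217 lower where the unadjusted limma p was under 0.05. KMT2D was the 1 coregulator among these (-0.27, SE 0.11, adjusted p = 1 by limma). KMT2D had 7.87 with R5020 and 7.95 without it in iKR cells, against 7.57 and 8.04 in iWT cells, where the difference of -0.47 was at percentile 0.1 of all genes. Its other 2 probe sets gave 0.12 and -0.02 in iWT cells. In iWT cells 17 of the 18 coregulator probe sets were lower with R5020 (median -0.17), while 54.7% of all 19070 single-gene probe sets were lower (median -0.01). In iKR cells 14 of 18 were lower (median -0.04, all probe sets 51.1% lower). Each of these is 1 pair of arrays, and probe sets of 1 gene are not independent.

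The part of the R5020 response that was gained with AP21967 was tested as the response with AP21967 minus that without it. None of the 7 coregulators was called, against 2.1% of all genes (229), with 2 coregulators at an unadjusted p under 0.05. NCOA2 gave -0.58 (SE 0.15, 95% interval -0.91 to -0.24, adjusted p = 0.096), since without AP21967 it had 10.28 with R5020 and 10.15 without it in iKR cells, and 10.05 and 10.23 in iWT cells. Averaged over its 4 probe sets, the NCOA2 estimate was -0.14 (adjusted p = 0.70 by limma). Without either iWT array with AP21967, the part with AP21967 comes from iKR cells alone. The estimates were then -0.73 for NCOA2 and 0.43 for NCOA1. EP300 213579_s_at gave 0.32 (SE 0.11, adjusted p = 0.21), and the other 5 lay between -0.16 and 0.27.

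**Figure D3:**
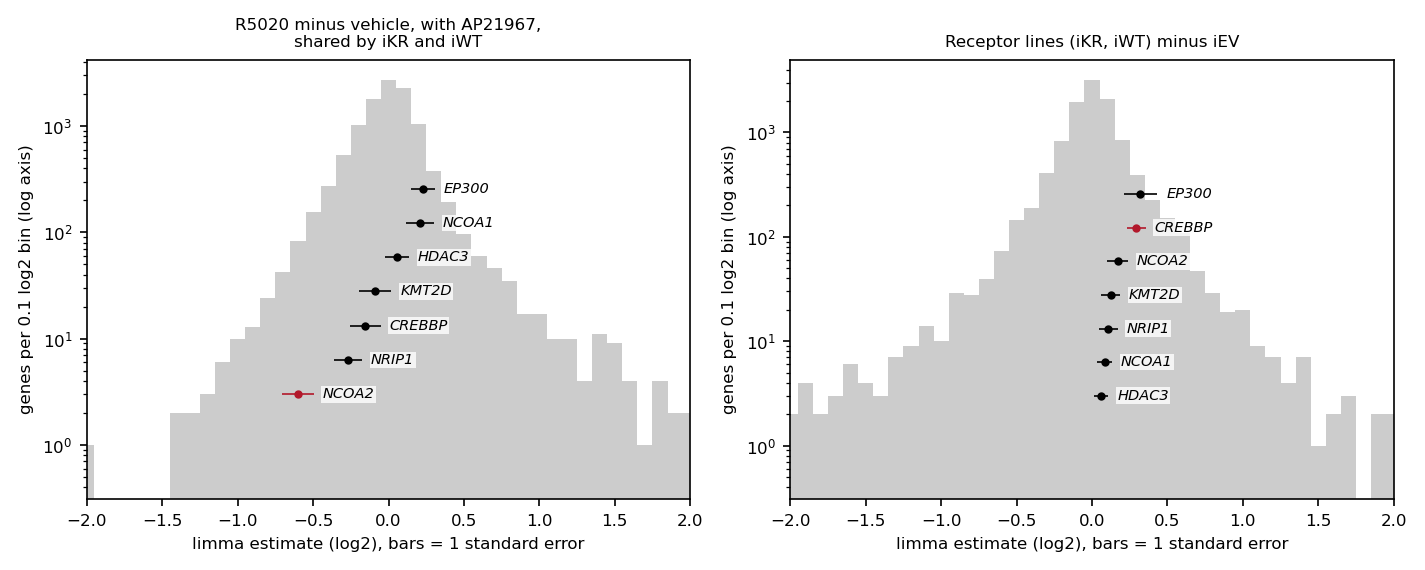
Histograms (grey, log count axis) of the limma estimates (log2, x axis) of the 10911 genes, with the 7 coregulators drawn over them at arbitrary heights and bars of 1 standard error; red marks an adjusted p under 0.05, and estimates beyond 2 in size lie outside the axis. NCOA2 at -0.60 is the only coregulator called for R5020 with AP21967 on the left, and CREBBP at 0.29 the only one called for receptor lines against iEV on the right.

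The study was designed to compare the SUMO-deficient with the wild-type receptor. For the R5020 differences with AP21967, the iKR minus iWT difference has no replicate and no test. In single pairs of arrays 1 coregulator, NCOA2, passed 1.5 fold in iKR cells, where 6.19% of all genes did, and 0 did in iWT cells, where 2.61% did. The iKR minus iWT difference passed 1.5 fold for 0 of 7 coregulators and for 2.5% of all genes (273). Net of the difference without AP21967, 2 of 7 coregulators passed it, NCOA2 and KMT2D, both at -0.62, against 6.27% of all genes (684), and the median was -0.45 over the coregulators and 0.06 over all genes. For this net difference the other KMT2D probe sets gave -0.25 and -0.20, and the other NCOA2 probe sets -0.79, -0.23 and -0.24. Part of it comes from the cells without AP21967, where the iKR minus iWT difference was 0.39 for KMT2D and 0.31 for NCOA2. The median there was 0.15 over the coregulators and -0.0006 over all genes. The net difference rests on single arrays and carries no test. In the difference with AP21967 itself, NCOA1 was at 0.30, with its other probe sets at 0.21 to 0.31. NCOA2 (-0.31), CREBBP (-0.30), NRIP1 (-0.29) and KMT2D (-0.23) lay on the other side, and EP300 was at 0.09 and HDAC3 at 0.12. The side turned with the probe set for CREBBP (211808_s_at at 0.15) and EP300 (202221_s_at at -0.38). The other probe sets of NCOA2, NRIP1 and KMT2D were also negative. Over all genes the median absolute difference was 0.15 and the median 0.04. The negative lead probe sets lay at percentiles 7.4 to 12.2, and NCOA1 at 90.3. With AP21967 alone, iKR minus iWT was already 0.16 for NCOA2, 0.29 for CREBBP and 0.19 for NRIP1, but -0.10 for KMT2D. With both agents it was -0.15, -0.01, -0.10 and -0.33. The negative values of NCOA2, CREBBP and NRIP1 thus rest in part on the single iKR array with AP21967 alone, where each had its highest value.

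Across all 4 treatment states, no coregulator differed between the iKR and iWT lines at the threshold, against 6.87% of all genes (750); 1 coregulator had an unadjusted p under 0.05. This was CREBBP, higher in the iKR line by 0.23 (SE 0.07, adjusted p = 0.12). CREBBP 202160_at had 9.40 in iKR and 9.21 in iWT cells without treatment, 9.37 and 8.93 with R5020, 9.52 and 9.23 with AP21967, and 9.22 and 9.23 with both. The order was thus the same in 3 states and absent in the fourth. The dimmer 211808_s_at did not follow this. Its iKR minus iWT difference was -0.15 without treatment, -0.05 with R5020, 0.04 with AP21967 and 0.19 with both. Without either array with both agents, CREBBP 202160_at was called (0.31, adjusted p = 0.011 by limma), as were 1284 of the 10911 genes. The array left out belongs to the state where the order was absent, so this call adds no support. The other 6 coregulators lay between -0.05 and 0.10.

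AP21967 alone, which induces the vector, was compared over the 6 arrays without R5020. Called were 0 coregulators and 0.0% of all genes over the 3 lines (501 higher and 480 lower genes had an unadjusted p under 0.05), and 2 coregulators had an unadjusted p under 0.05. These were EP300 (-0.31, SE 0.11, adjusted p = 0.51) and KMT2D (-0.18, SE 0.06, adjusted p = 0.49). EP300 213579_s_at had 8.25 with AP21967 and 8.82 without it in iKR cells, 8.29 and 8.68 in iWT cells, but 8.21 and 8.16 in iEV cells. The differences of -0.58 in iKR and -0.39 in iWT cells were at percentiles 0.0 and 0.3 of all genes, and the difference in iEV cells of 0.05 at percentile 71.3.

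This pattern of EP300 was followed with a separate AP21967 effect in iEV cells, a fit added after the values were seen and with 1 residual degree of freedom. Over iKR and iWT, EP300 gave -0.48 (SE 0.06, 95% interval -0.63 to -0.33, adjusted p = 0.18), and 0 coregulators were called against 0.0275% of all genes (3). With a variance prior that follows signal, the EP300 adjusted p was 0.0024 by limma, where 139 of 10911 genes were called. On simulated data this fit called too many unchanged genes, so its p values run too small. The difference between the receptor lines and iEV was -0.53 (SE 0.11, adjusted p = 0.39), with 0 coregulators and 0.0% of genes called (590 higher and 399 lower genes had an unadjusted p under 0.05, with EP300 alone of the coregulators). The second EP300 probe set, 202221_s_at, gave 0.10 in iKR, -0.12 in iWT and 0.03 in iEV cells. The arrays with AP21967 alone also serve as the vehicle arrays of the R5020 comparison above. The low EP300 213579_s_at on the iKR array therefore enters both. The same holds for the high NCOA2 212867_at (10.43), CREBBP 202160_at (9.52) and NRIP1 202599_s_at (9.58) on that array.

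KMT2D was the other gene with like values in both receptor lines. Its lead probe set gave -0.26 in iKR, -0.25 in iWT and -0.04 in iEV cells, 216382_s_at -0.17, -0.11 and -0.10, and 211790_s_at -0.16, -0.22 and 0.09. Over iKR and iWT the estimate was -0.25 (SE 0.06, adjusted p = 0.23). NCOA2 205732_s_at was lower with AP21967 by 0.60 in iWT cells, the single probe set past 1.5 fold in that pair, with -0.05 in iKR and 0.22 in iEV cells, and 212867_at gave 0.28, 0.04 and -0.03 in iKR, iWT and iEV cells.

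**Figure D4:**
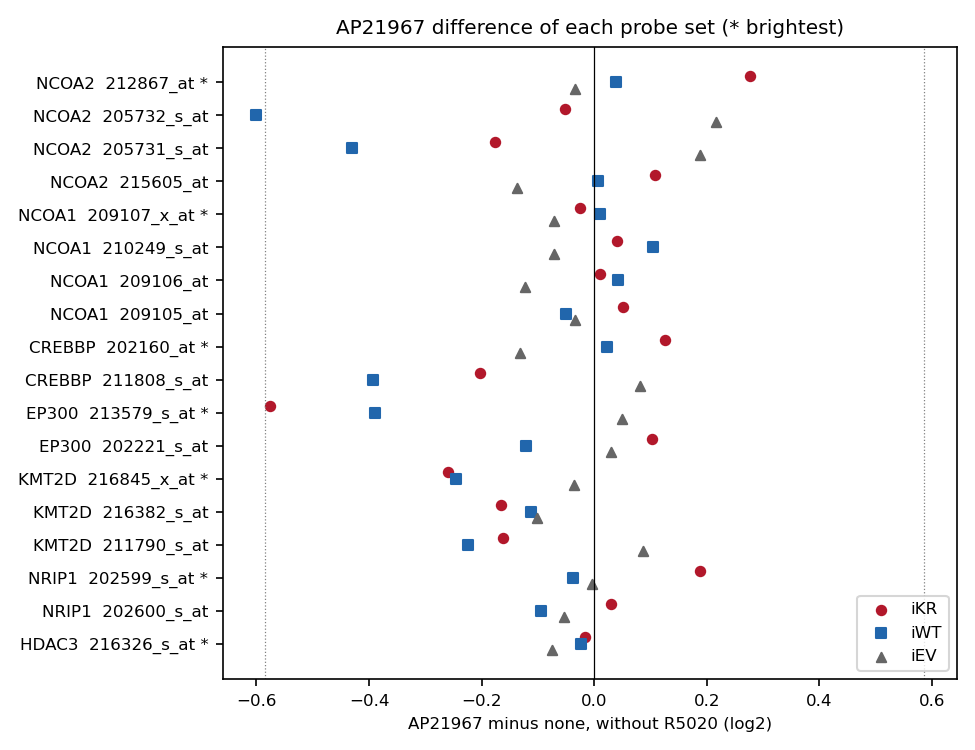
AP21967 minus none without R5020 (log2, x axis) for the 18 coregulator probe sets (y axis) in iKR (red circles), iWT (blue squares) and iEV cells (grey triangles), with dotted lines at 1.5 fold; each point is a difference of 2 single arrays. EP300 213579_s_at is at -0.58, -0.39 and 0.05 in the 3 lines, and EP300 202221_s_at at 0.10, -0.12 and 0.03.

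Receptor lines were also set against iEV without R5020. CREBBP was called higher, 1 of 7 coregulators, against 28.2% of all genes. In this fit the states without and with AP21967 served as repeats, and unlike levels of iKR and iWT do not enter the p. The CREBBP 202160_at difference from iEV was 0.54 in iKR and 0.25 in iWT cells with AP21967, and 0.28 and 0.10 without it. CREBBP 202160_at had 9.52 with AP21967 and 9.40 without it in iKR cells, 9.23 and 9.21 in iWT cells, and 8.98 and 9.11 in iEV cells. The estimate was 0.29 (SE 0.06, 95% interval 0.15 to 0.44, adjusted p = 0.010). The call ends with the mean of both CREBBP probe sets (0.10, adjusted p = 0.21) and without the iEV array with AP21967 (0.19, adjusted p = 0.11); 211808_s_at had 6.66 and 6.86 in iKR, 6.62 and 7.01 in iWT, and 6.92 and 6.84 in iEV cells.

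EP300 was higher by 0.32 in the receptor lines (SE 0.11, adjusted p = 0.070) and NCOA2 by 0.17 (SE 0.07, adjusted p = 0.11), neither called. With AP21967 the EP300 difference from iEV was 0.04 in iKR and 0.07 in iWT cells, against 0.66 and 0.51 without AP21967. Its second probe set was higher in all 4 pairs, by 0.45 and 0.38 in iKR cells with and without AP21967 and by 0.09 and 0.24 in iWT cells, and was called (0.29) in the test of all probe sets, where 24.5% of them were. These calls depended on the setting. EP300 was called by limma when both probe sets were averaged (0.31, adjusted p = 0.013), where 3161 of 10705 genes were called. It was also called with a variance trend (adjusted p = 0.021), where 3607 of 10911 genes were. Its estimate with 1 array left out ranged from 0.055 to 0.59. NCOA2 was called with the same variance trend (adjusted p = 0.045), and its estimate with 1 array left out ranged from 0.074 to 0.26. NRIP1 (0.11), NCOA1 (0.08), KMT2D (0.12) and HDAC3 (0.06) had adjusted p of 0.18 to 0.41.

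Other coregulators were taken from lists of 44 coactivators and 44 corepressors and of 15 subunits of H3K4 methyltransferase complexes. With R5020 and AP21967, 2 of 34 measured coactivators rose and 7 fell (median -0.10), 1 of 36 corepressors rose and 5 fell (median -0.02), and 0 of 12 H3K4 subunits rose and 1 fell (median -0.12), where the median of all genes was 0.01 and 11.5% of them were called. The largest changes among them were falls of HDAC9, a class IIa histone deacetylase (-1.15, SE 0.12, adjusted p = 0.00079), CITED2, which binds CREBBP and EP300 (-0.94, SE 0.11, adjusted p = 0.0010), HEXIM1, an inhibitor of P-TEFb (-0.71, SE 0.08, adjusted p = 0.00089), and TBL1XR1, a subunit of the NCOR1 and HDAC3 complex (-0.66, SE 0.09, adjusted p = 0.0022).

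HDAC9 had 7.48 with R5020 and 8.88 without it in iKR cells with AP21967, and 7.56 and 8.45 in iWT cells. CITED2 gave -1.15 in iKR and -0.74 in iWT cells, and its second probe set -0.96 and -0.87. The second HEXIM1 probe set differed by only 0.02 in iKR and 0.05 in iWT cells, so its fall rests on 1 probe set. CITED1, a relative of CITED2, rose (0.49, adjusted p = 0.0046), as did KDM4B, a histone H3K9 demethylase (0.42, adjusted p = 0.011).

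The single call among the H3K4 subunits for R5020 with AP21967 was KMT2B. This gene, another H3K4 methyltransferase, fell with R5020 and AP21967 (-0.56, SE 0.08, adjusted p = 0.0039), but its dimmer probe sets gave 0.32 and -0.03 in iKR cells and -0.01 and -0.13 in iWT cells. Without AP21967 none of the 3 lists had a call. CITED2 (-0.77), HDAC9 (-1.13) and HEXIM1 (-0.64) were also called in the response gained with AP21967 (adjusted p of 0.040, 0.014 and 0.025 by limma). Between lines, KDM4B was lower in iKR than in iWT cells by 0.65 (log2 difference -0.65, adjusted p = 0.00046), and in receptor lines than in iEV cells (-1.02, adjusted p = 2e-05), with 9.88, 10.51 and 11.13 in untreated iKR, iWT and iEV cells. NCOA6, a coactivator found in the KMT2D complex, was higher in receptor lines than in iEV (0.29, adjusted p = 0.0034). Of the lists, 9 of 34 coactivators were higher and 3 lower than in iEV, and 5 of 36 corepressors were higher and 6 lower, against 28.2% of all genes called.

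**Figure D5:**
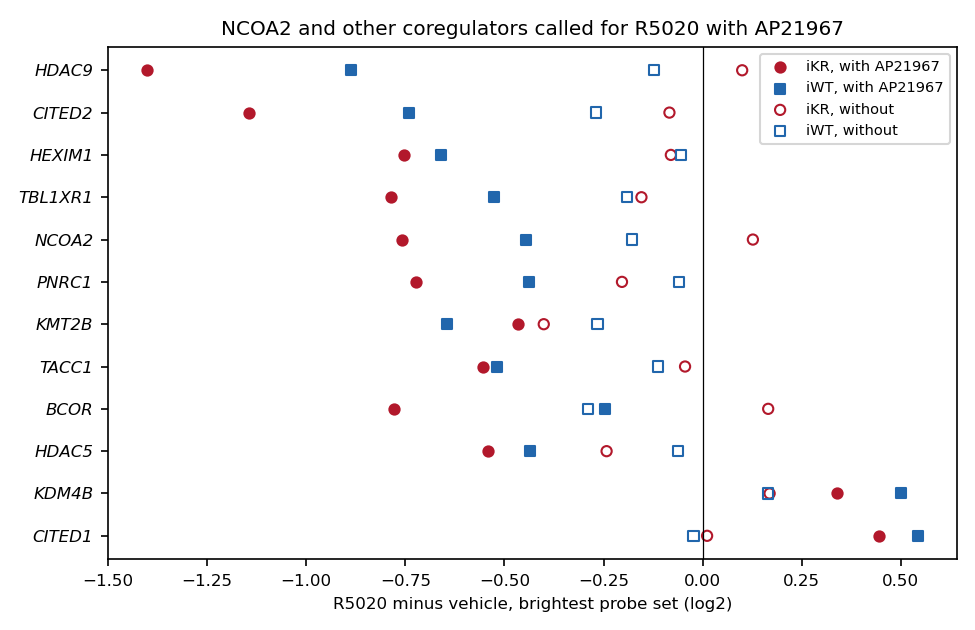
R5020 minus vehicle (log2, x axis) of the brightest probe set of NCOA2 and of the called coregulators named for R5020 with AP21967 (y axis), in iKR (red circles) and iWT cells (blue squares), filled with AP21967 and open without it; each point is a difference of 2 single arrays. HDAC9 is at -1.40 in iKR and -0.89 in iWT cells with AP21967, and CITED1 and KDM4B lie above 0.

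NCOA2, as the coregulator with the widest range, was set against the 653 genes tested that spanned at least 1 log2 unit over the 10 arrays. The genes most like it were FAM13A (Pearson r 0.97, Spearman rho 0.98), IRS1 (0.96 and 0.95), SLC11A2 (0.94 and 0.89), BLNK (0.93 and 0.82) and WWP1 (0.93 and 0.88), over 10 arrays that share the same 2 low points. FAM13A had 9.42 with R5020 and 10.53 without it in iKR cells with AP21967, and 9.54 and 10.38 in iWT cells. IRS1, the insulin receptor substrate, had 8.01 and 9.36 in iKR cells, and 8.34 and 9.12 in iWT cells. These likenesses are a description and carry no test.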

How the data were processed

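RNA of 10 conditions was hybridized to Affymetrix expression arrays. The authors processed the raw files with Robust Multi-array Average, so the deposited values are background-corrected, quantile-normalized log2 signals. Array medians were 8.12 to 8.15. Probe sets were named from the platform annotation: 19070 listed 1 gene, 1043 several and 2164 none. Each of 11963 genes was represented by its brightest probe set, and the 10911 reaching log2 6 on some array were tested with limma 3.58.1 in R 4.3.3 (lmFit, eBayes, Benjamini-Hochberg over all genes, 0.05). As each condition has 1 array, the lines served as repeats for the R5020 and AP21967 effects, with 2 or 3 residual degrees of freedom over the planned fits. The treatment states served as repeats for iKR against iWT, and the states without and with AP21967 for receptor lines against iEV. A response of 1 receptor line alone enters the residual. In the comparison with iEV, a level that differs between iKR and iWT does not. The fits were tested on simulated data. Differences of single arrays carry no test.

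The genes and lists were chosen with earlier results of these data known. Named were the members, PGR and FKBP5 as checks, up to 5 called genes of each list and comparison with the largest difference, and the 5 genes most like NCOA2. Alternatives were no level filter, the mean of probe sets, every probe set, no _x_at or _s_at probe sets, cyclic loess, median centring, a variance trend, another fold threshold and, added after the values were seen, leaving out each array and a separate AP21967 effect in iEV. Tables were handled with Python 3.11.15, pandas 2.3.3 and numpy 2.4.6, figures with matplotlib 3.10.9.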

Additional observations from a re-analysis of the deposited data

Results flagged for a closer look

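With AP21967, the R5020 difference had opposite signs in the 2 receptor lines for KMT2D (-0.21 in iKR and 0.03 in iWT cells, a difference of -0.23) and for HDAC3 (0.12 and -0.0009, a difference of 0.12). Without AP21967 it had opposite signs for NCOA2 (0.13 in iKR and -0.18 in iWT cells, a difference of 0.31). These 3 differences between lines were not tested, since each line has 1 array per condition.

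With AP21967 alone, both receptor lines went one way and iEV the other in the lead probe sets of 3 genes. The difference of receptor lines from iEV was 0.19 for NCOA2 (adjusted p = 0.70 by limma), 0.21 for CREBBP (adjusted p = 0.59) and -0.53 for EP300 (adjusted p = 0.39), none of them called. NCOA2 205732_s_at and 205731_s_at and CREBBP 211808_s_at split the opposite way, while NCOA2 215605_at split as its lead probe set did. EP300 202221_s_at had unlike signs in the receptor lines (0.10 in iKR and -0.12 in iWT cells).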

How the results depend on the processing

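Over 7 other settings, 340 estimates of the 7 coregulators kept their direction and side of the threshold, 14 changed direction, 4 gained a call and 2 lost one. With the mean of probe sets in place of the brightest, these turned: EP300 (-0.16) and KMT2D (0.037) for R5020 with AP21967; CREBBP for the response gained (0.19); CREBBP (-0.083) and NCOA2 (-0.050) for AP21967 over 3 lines; NRIP1 for iKR against iWT (-0.0051); KMT2D for receptor lines against iEV (-0.015); CREBBP (-0.11), NCOA1 (0.023) and NCOA2 (-0.10) for AP21967 over iKR and iWT; and CREBBP (-0.087) and NCOA2 (-0.16) for receptor lines against iEV under AP21967. NCOA1 over iKR and iWT also turned with median centring (0.0067) and when _x_at and _s_at probe sets were dropped (0.026). Direction thus depended mainly on which probe set stood for the gene; without _x_at and _s_at probe sets EP300, KMT2D, NRIP1 and HDAC3 had none.

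Counts over all genes moved as follows. Without _x_at and _s_at probe sets, which leaves 7241 genes, 804 were called for R5020 with AP21967, 453 for iKR against iWT and 1813 for receptor lines against iEV. With a variance trend, 351 were called for the response gained, and for AP21967 139 over iKR and iWT and 13 against iEV; over iKR and iWT 1 was called with the mean of probe sets and 0 with every probe set. For the iKR minus iWT difference 28 passed 2.0 fold, and 684 passed 1.5 fold net of the difference without AP21967.

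Leaving out each array in turn gave 1043 to 2214 calls for R5020 with AP21967, 1 to 7 without it, 124 to 1528 for the response gained, 0 to 3 for AP21967 over 3 lines, 306 to 1284 for iKR against iWT and 2116 to 2583 for receptor lines against iEV. The most calls for R5020 came without either iWT array with AP21967, where the estimate rests on iKR alone, and for iKR against iWT without either array with both agents. Calls for R5020 that rest on 1 line measure no likeness of the lines. Of the coregulator estimates with 1 array left out, 270 kept direction and side of the threshold, 24 changed direction, 13 gained a call and 1 lost it. For R5020 with AP21967, NCOA2 ranged over -0.76 to -0.45, HDAC3 over -0.00086 to 0.12 and KMT2D over -0.21 to 0.026. The ends of these ranges are the differences of 1 line alone. NCOA2 without AP21967 ranged over -0.18 to 0.13, and for the response gained CREBBP over -0.15 to 0.15 and KMT2D over -0.011 to 0.38. For AP21967 over 3 lines CREBBP ranged over -0.054 to 0.074 and NRIP1 over -0.021 to 0.092. For iKR against iWT KMT2D ranged over -0.17 to 0.039, NCOA2 over -0.021 to 0.11 and NRIP1 over -0.0046 to 0.094. Against iEV CREBBP ranged over 0.19 to 0.40 and EP300 over 0.055 to 0.59. The 2 added comparisons leave no residual degree of freedom when an array is dropped. The fits compare arrays within a line or a treatment state, and the replicate numbers, 1 for every condition, give no further pairing. The number of arrays limits the precision, and 1 line stands for each vector.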
